A study of Mus musculus with 16 samples.

Results

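The 6 genes described here handle zinc in the cell: the metallothioneins Mt1 and Mt2, the zinc transporters Slc30a1, Slc39a14 and Slc39a10, and the transcription factor Mtf1. They were taken by symbol from a table of 30884 genes, all 6 were found, and 5 of them had enough counts to be tested, among 14716 genes tested in all. Heart RNA came from wild type male C57BL/6 mice aged 8 weeks, and each of the 4 groups has 4 libraries. DOX_NMN mice received nicotinamide mononucleotide (NMN, a precursor of the coenzyme NAD) at 500 mg/kg and 30 min later doxorubicin, an anthracycline cancer drug that can injure heart muscle, at 15 mg/kg. DOX_Vehicle mice received saline before the same dose of doxorubicin, Sham_NMN mice received NMN and saline in place of doxorubicin, and Sham_Vehicle mice received saline at both injections. All injections were intraperitoneal, and hearts were taken on day 5. The labels number the replicates and do not say that they are separate animals, so a p-value here reflects no more than the spread among these libraries, which may be technical.

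Metallothioneins are small cysteine-rich proteins that bind zinc, copper and cadmium and react with oxidants. Free zinc in the cell is sensed by MTF1, which then binds metal response elements (MREs) in the promoters of Mt1, Mt2 and Slc30a1. Slc30a1 encodes ZnT1, which exports zinc across the plasma membrane, Slc39a10 encodes ZIP10, a zinc importer that MTF1 is known to repress, and Slc39a14 encodes ZIP14, which takes up zinc, manganese and iron not bound to transferrin and is induced by interleukin-6 in mouse liver. Mice made to overproduce metallothionein in the heart are known to be less sensitive to doxorubicin.

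The promoters of Mt1, Mt2 and Slc30a1, the known targets of MTF1 among the 6 genes, are shown because all 3 hold the MRE core while Mt1 passed a test of difference between groups, Slc30a1 did not and Mt2 had too few counts to test. Windows came from RefSeq (GRCm38.p6), ran from 250 bases before the gene start to 50 after it, and were found for 5 of the 6 genes, not for Slc39a14. Capitals mark the 7 bases of the MRE core, TGCACNC or TGCGCNC, or its reverse complement. The Mt1 window is chr8:94178839-94179138, the Mt2 window chr8:94172368-94172667 and the Slc30a1 window chr1:191906531-191906830, each on the plus strand and printed 5′ to 3′.
Mt1: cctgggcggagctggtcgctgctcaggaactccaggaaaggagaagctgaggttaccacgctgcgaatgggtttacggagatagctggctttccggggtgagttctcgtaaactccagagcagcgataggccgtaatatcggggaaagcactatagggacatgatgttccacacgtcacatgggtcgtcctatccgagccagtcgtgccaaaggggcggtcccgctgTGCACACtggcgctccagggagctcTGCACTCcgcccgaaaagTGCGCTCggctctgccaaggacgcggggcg
Mt2: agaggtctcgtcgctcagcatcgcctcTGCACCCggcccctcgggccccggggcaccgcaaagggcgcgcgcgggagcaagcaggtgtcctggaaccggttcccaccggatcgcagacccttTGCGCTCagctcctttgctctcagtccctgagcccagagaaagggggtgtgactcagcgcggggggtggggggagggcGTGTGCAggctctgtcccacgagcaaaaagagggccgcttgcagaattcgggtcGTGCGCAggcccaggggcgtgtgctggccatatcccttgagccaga
Slc30a1: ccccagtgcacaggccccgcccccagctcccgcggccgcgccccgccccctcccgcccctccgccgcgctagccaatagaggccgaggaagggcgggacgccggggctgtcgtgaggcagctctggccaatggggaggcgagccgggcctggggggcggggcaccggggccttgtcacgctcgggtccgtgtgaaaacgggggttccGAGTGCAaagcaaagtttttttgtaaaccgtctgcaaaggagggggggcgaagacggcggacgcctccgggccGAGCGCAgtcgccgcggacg

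The MRE core, searched on both strands, was found 3 times for Mt1, 4 times for Mt2 and 2 times for Slc30a1. Of all 32851 windows 25.7% held it at least once, 7.11% at least 2 times, 1.97% at least 3 times and 0.517% at least 4 times. The Mt1 matches began at -23, 2 and 20 bases from the gene start, all on the plus strand, whereas those of Mt2 lay on both strands and those of Slc30a1 on the minus strand. No match was found in the windows of Mtf1 or of Slc39a10, which had 2 windows. The core of the antioxidant response element, TGACNNNGC, did not overlap an MRE core. It was found once each in the windows of Mt2 and Slc30a1 and not in that of Mt1, against 12.4% of all windows. A match is a description of letters, and GENCODE also lists transcripts that start further on than the gene start of these windows: 122 and 152 bases after it for Mt1, 46 and 242 for Mt2 and 475 for Slc30a1. The Mt1 window ends before the later Mt1 starts, so the bases between its end and those starts were not searched. Whether the antioxidant core or more MRE cores lie there was not tested. The lack of a TGACNNNGC match for Mt1 therefore holds for the printed window only.

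Libraries held 13.9 M to 16.4 M counts, so 3 counts stood for 0.181 to 0.217 CPM (counts per M counts of the library, after TMM scaling). Cardiomyocyte markers were present throughout, with Tnnt2, the cardiac troponin T, at 5923 CPM or more in every library, but not at a constant level. The listed cardiomyocyte markers summed to 44858 to 73535 CPM in DOX_NMN and 26254 to 37091 CPM in DOX_Vehicle. In Sham_NMN they summed to 68854 to 76842 CPM and in Sham_Vehicle to 73649 to 81857 CPM. The libraries fell into 2 parts that cross the groups, drawn from the levels of Scand1, Cox11 and Mrps34. A second part of 6 libraries held replicates 3 and 4 of DOX_Vehicle and of Sham_Vehicle and replicate 4 of DOX_NMN and of Sham_NMN, and the first part held the other 10. In fits of the second part DOX_NMN and Sham_NMN are 1 library each, which is assumed to vary like the groups with 2, so values resting on them are given as a description. The spread in those fits comes only from the 2 libraries each of DOX_Vehicle and Sham_Vehicle. The parts were also drawn from these same data. No p-value of the second part is therefore printed, and its counts of called genes are a description. What the parts stand for is not given in the labels. Replicate 3 of DOX_NMN also stood apart, with summed erythroid markers of 321 CPM against 0.377 to 4.65 CPM in the other 3 DOX_NMN libraries. Every pair of replicates differed by more than sampling noise (chi-square per gene of 3.80 to 69.0).

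The deposited FPKM values, which are scaled to gene length and library total, put the 6 genes on a common scale. Averaged over the 16 libraries, Mt1 was at 241 FPKM, Slc39a14 at 9.82, Slc39a10 at 2.45, Mtf1 at 2.01, Slc30a1 at 0.205 and Mt2 at 0.0138. Mt1 ranked between 40 and 64 among all genes by FPKM in the DOX_Vehicle libraries, between 287 and 410 in DOX_NMN, between 179 and 438 in Sham_NMN and between 266 and 564 in Sham_Vehicle. The length used for Mt1 was 1246 bases, the whole span of the gene (ENSMUSG00000031765.8) from 94179082 to 94180327 on chromosome 8 (GRCm38), although its transcript Mt1-201 has 549 bases.

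Mt1 had the highest mean level of the 6 genes over the 16 libraries, per length as in FPKM, and the widest range. In DOX_NMN its levels were 133, 94.3, 99.8 and 124 CPM. In DOX_Vehicle they were 599, 767, 956 and 1060.3 CPM. In Sham_NMN they were 159, 144, 216 and 84.1 CPM, and in Sham_Vehicle 112, 143, 79.9 and 71.0 CPM. Every DOX_Vehicle library was above every other library, while the 3 other groups overlapped.

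**Figure D1:**
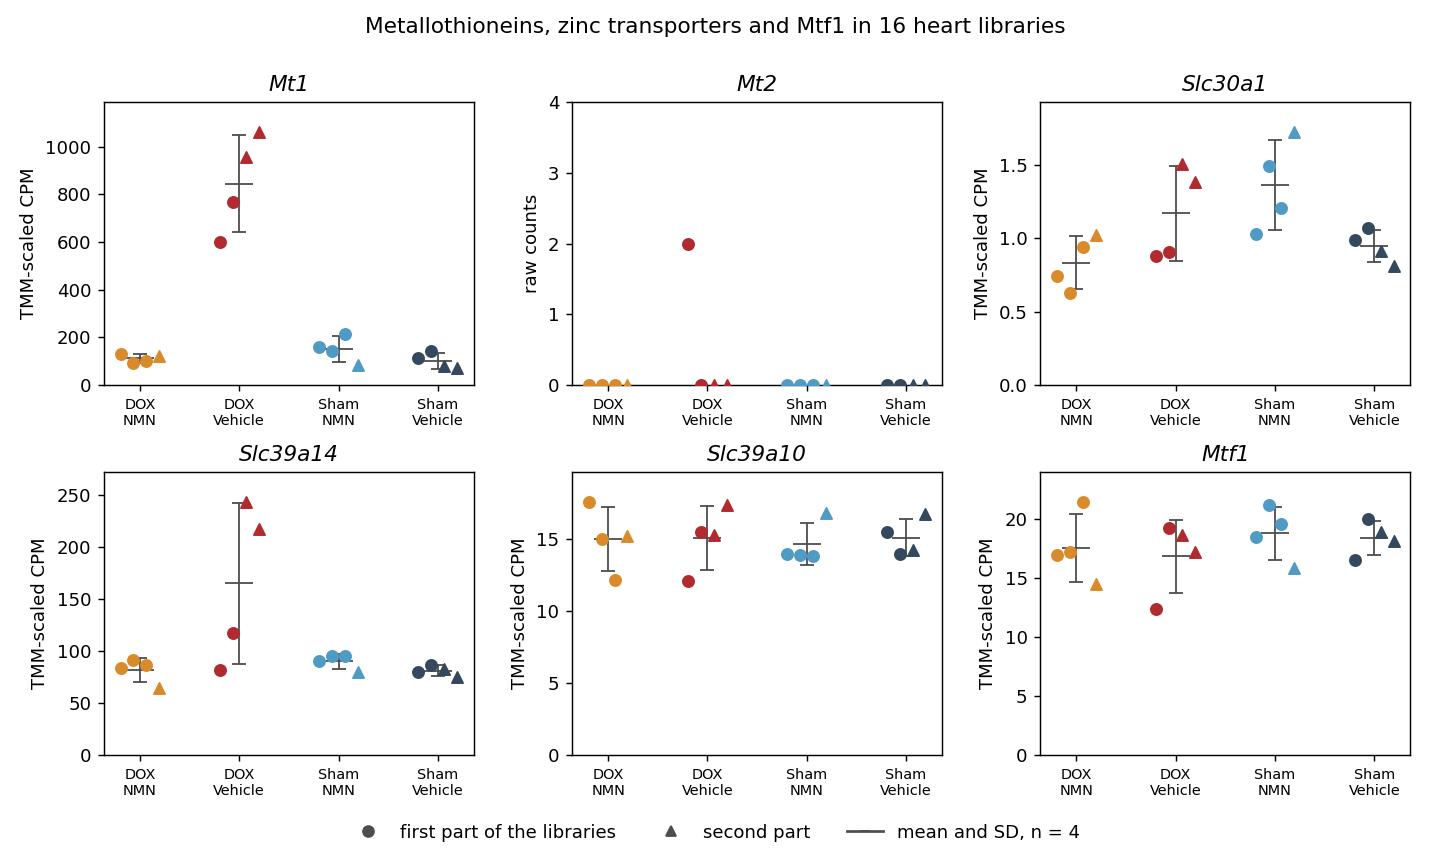
Each panel plots a gene in the 16 libraries, in TMM-scaled CPM, or in raw counts for Mt2, by group. Circles are libraries of the first part, triangles those of the second part, and bars give the mean and SD of 4 libraries. The Mt1 points of DOX_Vehicle, from 599 to 1060.3 CPM, stand above all others, and the Slc39a14 points of DOX_Vehicle spread from 81.2 to 243 CPM.

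Mt1 rose with doxorubicin given after vehicle, to 846 ± 204 CPM in DOX_Vehicle against 102 ± 32.8 CPM in Sham_Vehicle (SD, n = 4 each). The fitted difference was 8.33-fold, a log2 fold of 3.06 (SE 0.29, 95% interval 2.45 to 3.67, adjusted p = 2.71e-06 in edgeR's quasi-likelihood test, after Benjamini-Hochberg adjustment over all genes tested). It was the 114th highest log2 fold of the 14716 genes tested. Within the first part of the libraries the log2 fold was 2.42 (edgeR, adjusted p = 1.22e-04) and within the second part 3.74, with 2 libraries a group in each.

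With NMN before doxorubicin Mt1 was lower, at 113 ± 18.6 CPM in DOX_NMN against 846 ± 204 CPM in DOX_Vehicle (SD, n = 4 each). The log2 fold was -2.91 (SE 0.29, 95% interval -3.52 to -2.30, edgeR, adjusted p = 9.11e-06), which is 7.50-fold lower, and the 4 libraries of each group did not overlap. This comparison and the comparison of DOX_Vehicle with Sham_Vehicle share the DOX_Vehicle libraries. In the first part the log2 fold was -2.65 (adjusted p = 3.60e-05) and in the second, with 1 DOX_NMN library, -3.03. Without replicate 3 of DOX_NMN it was -2.85 (edgeR, adjusted p = 9.14e-05).

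NMN without doxorubicin gave no called difference in Mt1, at 151 ± 54.1 CPM in Sham_NMN and 102 ± 32.8 CPM in Sham_Vehicle (SD, n = 4 each). The log2 fold was 0.57 (SE 0.27, 95% interval -0.0023 to 1.14, unadjusted p = 0.0508 and adjusted p = 0.9996 by edgeR). Among the sham libraries Mt1 followed the parts, with 112 to 216 CPM in the 5 libraries of the first part and 71.0 to 84.1 CPM in the 3 of the second. Within the parts the log2 folds of Sham_NMN against Sham_Vehicle were 0.44 and 0.15, neither called. DOX_NMN did not pass the test against Sham_NMN either (log2 fold -0.42, SE 0.27, 95% interval -0.99 to 0.15, edgeR, adjusted p = 0.724). In the first part that log2 fold was -0.67 (adjusted p = 0.493), and in the second, where 1 library was set against 1 (124 CPM in DOX_NMN, 84.1 CPM in Sham_NMN), it was 0.56, a difference between libraries with no replicate check.

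The effect of doxorubicin on Mt1 depended on NMN by the test of the interaction, the log2 fold of DOX_NMN against Sham_NMN minus that of DOX_Vehicle against Sham_Vehicle. It was -3.48 (SE 0.39, 95% interval -4.30 to -2.65, edgeR, adjusted p = 1.14e-04). The first part alone gave -3.09 and was called. The second gave -3.18, with 1 library each of DOX_NMN and Sham_NMN.

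Mt2, the other main metallothionein of mouse tissues, could not be compared. It had 0 counts in 15 libraries and 2 counts in replicate 1 of DOX_Vehicle. Against the 13.9 M to 16.4 M counts of the libraries, a count of 0 allows up to 3 counts, or at most 0.217 CPM (counting error only). The gene (ENSMUSG00000031762.7) lies on chromosome 8 from 94172664 to 94173568, 5′ of Mt1 on the same strand. Of its 588 exonic bases in GENCODE M21, 432 (73.5%) are shared with Gm45774, an antisense gene from 94170748 to 94173412 on the opposite strand, and the library kit does not keep strand. Gm45774 itself had 0 to 4 counts in DOX_NMN, 1 to 16 in DOX_Vehicle, 0 to 5 in Sham_NMN and 0 to 1 in Sham_Vehicle. Reads of Mt2 and Gm45774 cannot be told apart over the shared bases, and the part of this overlap in the low count of Mt2 was not tested. Mt1 shares 0% of its exonic bases with another gene.

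**Figure D2:**
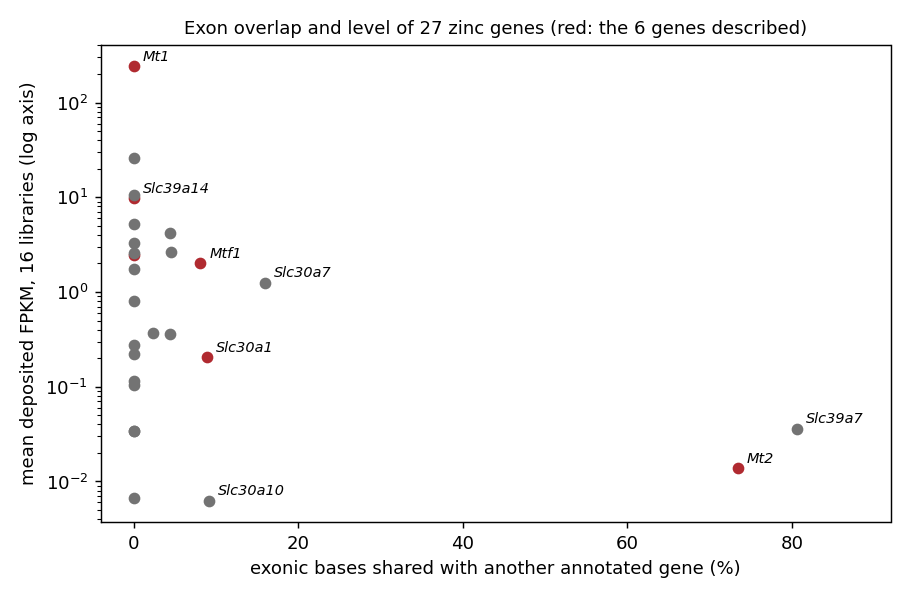
Each point is a metallothionein, a zinc transporter gene or Mtf1, 27 in all, by the percent of its exonic bases shared with another annotated gene and by its mean deposited FPKM over 16 libraries, on a log axis. Mt2 at 73.5% shared and Slc39a7 at 80.7% lie far to the right with means of 0.0138 and 0.0360 FPKM. Genes at 0% shared run from 0.00674 FPKM (Slc39a12) to the highest mean, 241 FPKM (Mt1).

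The 511 bases of transcript Mt2-201 and the 549 of Mt1-201 were 76.4% identical over 478 aligned bases, with no identical run over 20 bases. Mt3, the metallothionein known from brain, had 0 to 10 counts per library and was not tested.

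Slc30a1, the zinc exporter that MTF1 controls together with the metallothioneins, was close to the lower limit of these counts, with 10 to 25 per library. The gene (ENSMUSG00000037434.7) lies on chromosome 1 from 191906767 to 191913247 on the plus strand (GRCm38). Its levels were 0.742, 0.628, 0.938 and 1.02 CPM in DOX_NMN and 0.882, 0.907, 1.51 and 1.38 CPM in DOX_Vehicle. They were 1.03, 1.49, 1.20 and 1.72 CPM in Sham_NMN and 0.988, 1.07, 0.914 and 0.812 CPM in Sham_Vehicle. The groups overlapped, except that each DOX_NMN library was below each Sham_NMN library. That gap was narrow, from 15 counts (1.02 CPM) in replicate 4 of DOX_NMN to 16 counts (1.03 CPM) in replicate 1 of Sham_NMN. The share of all genes without overlap between these groups was not counted.

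The log2 fold of Slc30a1 in DOX_Vehicle against Sham_Vehicle was 0.30 (95% interval -0.29 to 0.89, edgeR, adjusted p = 0.390), and the rise of Mt1 by 3.06 lies outside this interval. The direction differed between the parts, at -0.20 in the first and 0.74 in the second, neither called. In DOX_NMN against DOX_Vehicle it was -0.49 (95% interval -1.09 to 0.12, adjusted p = 0.195), and in Sham_NMN against Sham_Vehicle 0.52 (95% interval -0.07 to 1.11, adjusted p = 0.9996). In DOX_NMN against Sham_NMN it was -0.71 (SE 0.28, unadjusted p = 0.0234, edgeR, adjusted p = 0.544). The interaction for Slc30a1 was -1.01 (SE 0.40, edgeR, adjusted p = 0.0861), which missed the threshold.

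Slc39a14, the importer of zinc, iron and manganese, was called in the same 3 comparisons as Mt1, with libraries that differed among themselves. The gene (ENSMUSG00000022094.15) lies on chromosome 14 from 70303469 to 70351425 on the minus strand. Its levels were 83.9, 90.9, 86.5 and 64.4 CPM in DOX_NMN. In DOX_Vehicle they were 81.2, 118, 243 and 218 CPM. In Sham_NMN they were 90.6, 94.7, 95.4 and 79.9 CPM, and in Sham_Vehicle 79.7, 86.7, 82.9 and 74.7 CPM. Replicate 1 of DOX_Vehicle lay inside the range of the sham libraries, replicate 2 somewhat above it, and replicates 3 and 4, the libraries of the second part, far above.

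The mean of Slc39a14 was 165 ± 77.8 CPM in DOX_Vehicle against 81.0 ± 5.04 CPM in Sham_Vehicle (SD, n = 4 each), a log2 fold of 1.03 (SE 0.25, edgeR, adjusted p = 0.00335). Against the same DOX_Vehicle libraries, DOX_NMN was lower, at 81.4 ± 11.7 CPM, with a log2 fold of -1.02 (SE 0.25, edgeR, adjusted p = 0.00565). Neither call was made with the first part alone. In the second part the log2 folds were 1.55 for DOX_Vehicle against Sham_Vehicle and -1.84 for DOX_NMN against DOX_Vehicle, which rests on 1 DOX_NMN library. In the first part they were 0.26 (edgeR, adjusted p = 0.187) and -0.19 (adjusted p = 0.302), neither called. The part played by whatever separates the libraries was not tested.

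Slc39a14 showed no called difference in Sham_NMN against Sham_Vehicle (log2 fold 0.15, 95% interval -0.37 to 0.68) or in DOX_NMN against Sham_NMN (log2 fold -0.15, 95% interval -0.67 to 0.38). The interaction was called, at -1.17 (SE 0.35, edgeR, adjusted p = 0.0322). It was -0.36 in the first part (adjusted p = 0.233), and without any single one of replicates 3 and 4 of DOX_NMN, 3 and 4 of DOX_Vehicle, 1, 2 and 3 of Sham_NMN or 1, 3 and 4 of Sham_Vehicle it ran from -1.20 to -0.92 with adjusted p from 0.0534 to 0.0713.

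Slc39a10, the importer repressed by MTF1, (ENSMUSG00000025986.6, chromosome 1 from 46807544 to 46892852, minus strand) had a narrow range in every group. It ran from 12.1 to 17.5 CPM in DOX_NMN, from 12.0 to 17.3 in DOX_Vehicle, from 13.8 to 16.8 in Sham_NMN and from 13.9 to 16.7 in Sham_Vehicle, so all 4 groups overlapped. The log2 fold was -0.0045 in DOX_Vehicle against Sham_Vehicle (95% interval -0.28 to 0.27, edgeR, adjusted p = 0.981) and -0.0065 in DOX_NMN against DOX_Vehicle (95% interval -0.29 to 0.27). The neighbouring groups could not be put in an order.

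Mtf1, the zinc sensor itself (ENSMUSG00000028890.13, chromosome 4 from 124802104 to 124849800, plus strand), also overlapped between all groups. Its range was 14.5 to 21.4 CPM in DOX_NMN, 12.4 to 19.2 in DOX_Vehicle, 15.9 to 21.2 in Sham_NMN and 16.6 to 19.998 in Sham_Vehicle. The log2 fold was -0.13 in DOX_Vehicle against Sham_Vehicle (95% interval -0.44 to 0.18, edgeR, adjusted p = 0.488) and 0.06 in DOX_NMN against DOX_Vehicle (95% interval -0.25 to 0.37, adjusted p = 0.788). The activity of MTF1 is known to be set by zinc binding and by movement into the nucleus, which were not measured. Of the exonic bases of Mtf1, 8.10% are shared with 1110065P20Rik on the opposite strand.

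**Figure D3:**
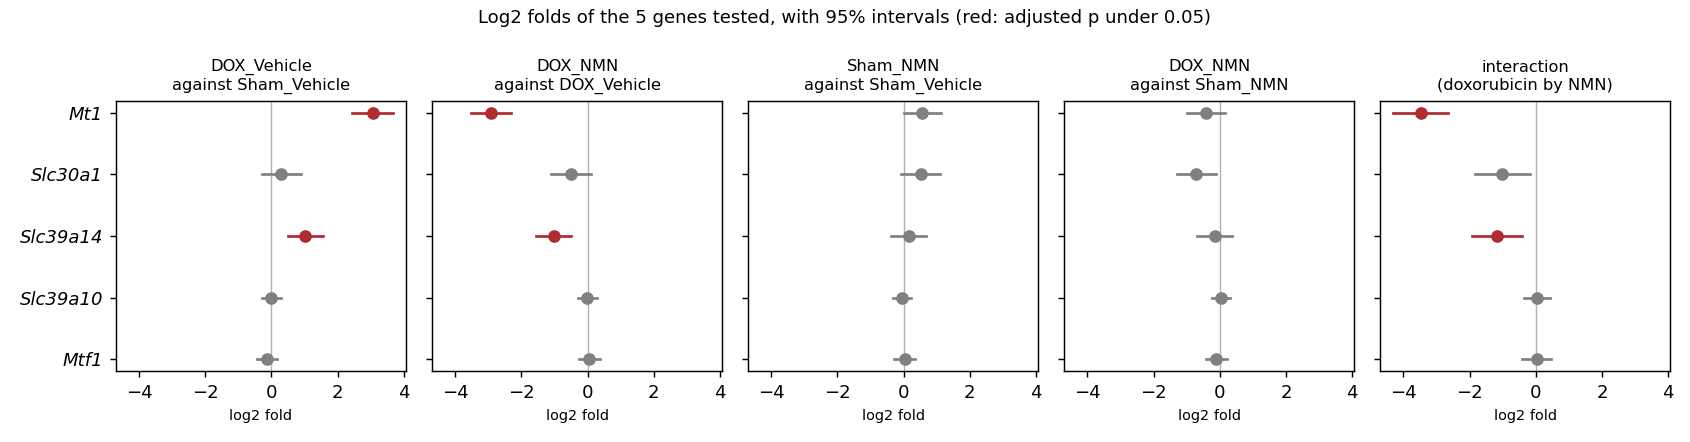
Points are log2 folds from edgeR for the 5 genes tested in each of the 5 comparisons, lines are 95% intervals, and red marks an adjusted p under 0.05. Mt1 is red at 3.06, -2.91 and -3.48 and Slc39a14 at 1.03, -1.02 and -1.17, in the same 3 comparisons, and the other 3 genes are grey throughout.

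Of the 5 genes tested, 2 were higher in DOX_Vehicle than in Sham_Vehicle and 0 lower, a share of 40% beside 48.5% of all genes tested (24.7% higher, 23.8% lower), so the share is near the background. In DOX_NMN against DOX_Vehicle 0 were higher and 2 lower, beside 36.0% of all genes called in either direction (17.4% higher, 18.6% lower). In the interaction 0 were higher and 2 lower, beside 18.0% of all genes (9.23% higher, 8.80% lower). In Sham_NMN against Sham_Vehicle edgeR, DESeq2 and limma-voom each called 0 of 5. In edgeR 0 of the 5 were under an unadjusted p of 0.05, beside 332 of all 14716 genes tested, and 0.00% of all genes were called. In DOX_NMN against Sham_NMN the same tools called 0 of 5. In edgeR 1 of the 5 (Slc30a1) was under an unadjusted p of 0.05, beside 1205 of all 14716 genes tested. Of all genes edgeR again called 0.00%, while DESeq2 called some genes outside the 5. The median log2 fold of the 5 genes was 0.30 in DOX_Vehicle against Sham_Vehicle, where that of all genes tested was 0.01.

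Across the wider families, 27 metallothionein, Slc30a and Slc39a genes and Mtf1 were in the table and 19 were tested. In DOX_Vehicle against Sham_Vehicle 3 rose, 4 fell and 12 did not pass. Besides Mt1 and Slc39a14, Slc39a6, the importer ZIP6, rose (9.52 ± 3.27 CPM in DOX_Vehicle, 4.97 ± 1.08 in Sham_Vehicle, log2 fold 0.93, edgeR, adjusted p = 0.00273). Within the first part Slc39a6 averaged 6.70 CPM in DOX_Vehicle and 5.40 in Sham_Vehicle (log2 fold 0.31, edgeR, adjusted p = 0.334), and within the second 12.3 and 4.54 (log2 fold 1.44). Those that fell were Slc30a9 (log2 fold -0.58, adjusted p = 2.50e-04), a zinc exporter of mitochondria, and Slc30a2 (-1.73, adjusted p = 0.0110), Slc39a2 (-1.09, adjusted p = 0.0208) and Slc39a3 (-0.50, adjusted p = 0.00208). Slc30a2 and Slc39a2 had 1 to 28 and 5 to 35 counts per library. In the first part alone Slc30a9 was still called (-0.52), while Slc30a2 (-0.79), Slc39a2 (-0.85) and Slc39a3 (-0.36) were not. Slc39a2 also lost its call without replicate 1 of Sham_Vehicle or replicate 3 or 4 of DOX_Vehicle (-1.03 to -0.85). Exporters gave 0 higher and 2 lower of 7 tested and importers 2 higher and 2 lower of 10, against a background of 48.5% of all genes called in either direction.

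In DOX_NMN against DOX_Vehicle 1 of the 19 rose, 3 fell and 15 did not pass, beside 36.0% of all genes called in either direction. Slc30a9 was higher (130 ± 21.8 CPM in DOX_NMN, 97.2 ± 6.82 in DOX_Vehicle, log2 fold 0.43, edgeR, adjusted p = 0.00460), but in the first part alone it was not called (0.35, adjusted p = 0.0760). The interaction of Slc30a9 was close to the threshold (0.44, edgeR, adjusted p = 0.0431). It lost its call in the first part (0.37), without a filter on low counts (0.47), with limma-trend on FPKM (0.38), with the replicate number as a block (0.44, adjusted p = 0.0621) and in 13 of 16 fits that left out a library, those without replicate 1 or 2 of DOX_Vehicle or 1 of DOX_NMN excepted (0.35 to 0.46 in the 13). Slc39a1, the importer ZIP1 and the transporter with the highest FPKM of the families, was lower (53.2 ± 4.07 CPM in DOX_NMN, 67.7 ± 8.88 in DOX_Vehicle, log2 fold -0.35, edgeR, adjusted p = 0.00983). It lost its call with only the 2 groups compared in the fit (-0.35, adjusted p = 0.0608), without a filter on low counts (-0.32, adjusted p = 0.0517) and in the second part (-0.19, 1 DOX_NMN library). The interaction was called in 1 higher and 2 lower of the 19, beside 18.0% of all genes. In Sham_NMN against Sham_Vehicle and in DOX_NMN against Sham_NMN edgeR called 0 of 19, and DESeq2 and limma-voom also called 0. Under an unadjusted p of 0.05 in edgeR were 0 and 3 of the 19, beside 332 and 1205 of all 14716 genes tested.

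**Figure D4:**
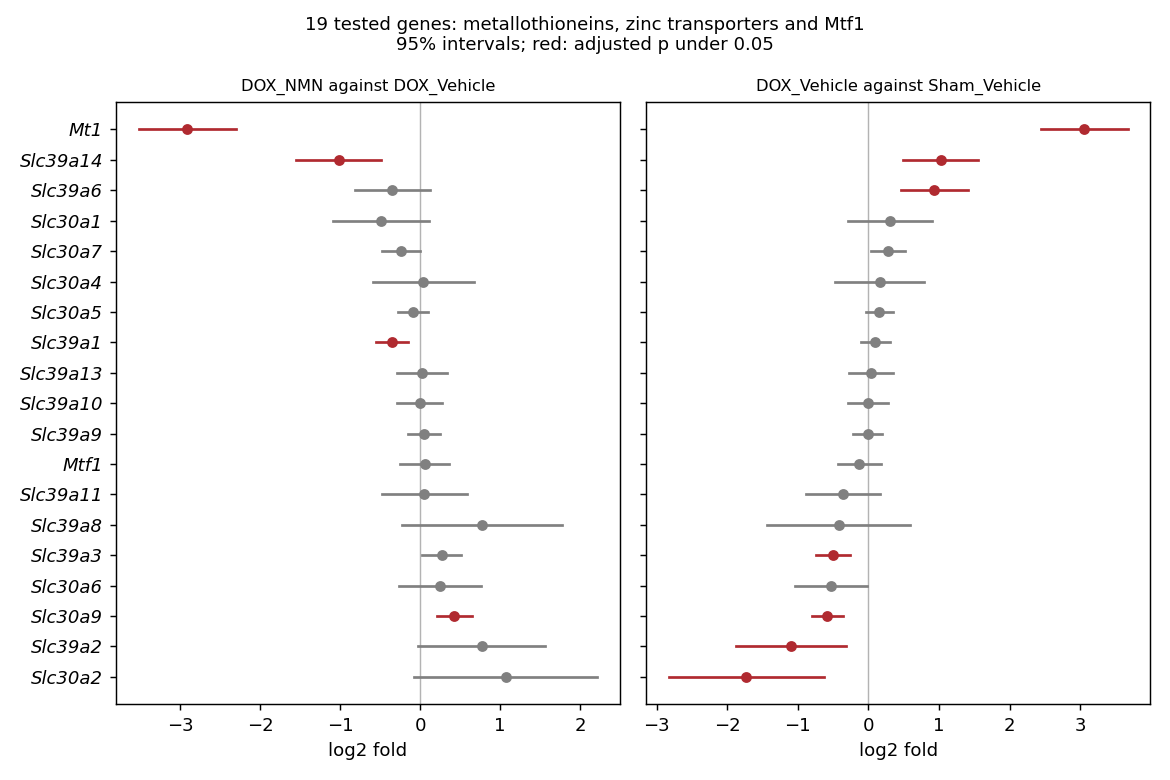
Points are log2 folds from edgeR with 95% intervals for the 19 tested genes, ordered by their log2 fold in DOX_Vehicle against Sham_Vehicle, and red marks an adjusted p under 0.05. Mt1 lies apart at -2.91 in the left panel (DOX_NMN against DOX_Vehicle) and 3.06 in the right panel (DOX_Vehicle against Sham_Vehicle), and the called transporters lie between -1.73 and 1.03.

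Genes whose profile was most like each of the 5 tested genes were found by the root mean square difference of mean-centred log2 CPM over the 16 libraries. For Mt1 these were Gclm at 0.330, the modifier subunit of the enzyme that makes the glutathione precursor, Cldn15, a tight junction protein, at 0.375 and Aox1, aldehyde oxidase, at 0.399, where the median over all genes was 1.33. For Slc39a14 they were Esam, an adhesion molecule of endothelial cells, at 0.132, Jmjd1c at 0.148 and Tmcc3 at 0.179, against a median of 0.597. Slc39a10 was nearest to Gopc, Taf12 and Top3b, Mtf1 to Dcp2, Celf1 and Skil, and Slc30a1 to Rnf146, Tgfbr1 and Hspbap1, all at 0.110 to 0.226, which is close to the small variation of these 3 genes (SD 0.156, 0.196 and 0.341 on the log2 scale).

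Of 8 tested genes known to depend on MTF1, a list that includes Mt1, Slc30a1 and Slc39a10, 5 were higher and 0 lower in DOX_Vehicle than in Sham_Vehicle (median log2 fold 0.85), beside 24.7% higher and 23.8% lower of all genes tested. In DOX_NMN against DOX_Vehicle 0 were higher and 4 lower (median -0.74), beside 17.4% and 18.6% of all genes. These backgrounds apply to the lists that follow as well, and nothing particular to a list is read from its count. Besides Mt1, the smallest p-values were those of Gclc, the catalytic subunit of glutamate-cysteine ligase (log2 fold 1.69 in DOX_Vehicle against Sham_Vehicle and -1.36 in DOX_NMN against DOX_Vehicle), Ndrg1 (1.41 and -1.18) and Pgf, placental growth factor (1.22 and -0.996), all called in both. For DOX_Vehicle against Sham_Vehicle the first part of the libraries gave 4 higher and 0 lower of the 8, and the second 5 higher and 1 lower.

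Mt1 is also known as a target of glucocorticoids and of interleukin-6 acting through STAT3. Of 12 tested glucocorticoid-responsive genes, Mt1 included, 9 were higher and 0 lower in DOX_Vehicle against Sham_Vehicle (median log2 fold 1.24), and 0 higher and 5 lower in DOX_NMN against DOX_Vehicle (median -0.72). The first part gave 5 higher and the second 12 for DOX_Vehicle against Sham_Vehicle. Of 14 genes of the interleukin-6 family and STAT3, 12 were higher and 0 lower in DOX_Vehicle (median 2.13), and 0 higher and 11 lower in DOX_NMN against DOX_Vehicle (median -2.03). Within the parts 10 and 12 were higher in DOX_Vehicle than in Sham_Vehicle, and 0 and 1 lower. Junb, a STAT3 target, had log2 folds of 3.41 and -2.88 and Osmr, the oncostatin M receptor, 2.86 and -2.04.

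Metals other than zinc gave mixed directions. Of 11 copper-handling genes 2 were higher and 4 lower in DOX_Vehicle than in Sham_Vehicle, and of 8 genes of iron and manganese transport 1 was higher and 3 lower, beside 48.5% of all genes called in either direction. The first part gave 2 higher and 0 lower for copper and 1 and 2 for iron and manganese, and the second 4 and 5, and 2 and 4. In DOX_NMN against DOX_Vehicle the counts were 3 higher and 1 lower, and 2 higher and 1 lower. Sod1, the copper-zinc superoxide dismutase, rose (log2 fold 1.02, edgeR, adjusted p = 4.15e-05), and Tfrc, the transferrin receptor, fell (-2.44, adjusted p = 0.00174), in DOX_Vehicle.

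Some markers of other cell types also differed between the groups, and in bulk RNA fewer cells of a type and less RNA per cell cannot be told apart. Of 8 tested neutrophil markers 7 were higher in DOX_Vehicle than in Sham_Vehicle and 7 lower in DOX_NMN than in DOX_Vehicle. The 10 listed summed to 6.01 to 18.5 CPM in DOX_NMN, 40.0 to 115 in DOX_Vehicle, 0.837 to 10.3 in Sham_NMN and 2.09 to 8.20 in Sham_Vehicle, and Ly6g had 2 to 13 counts in DOX_Vehicle and 0 in all other libraries. Their part in the levels of Mt1 and Slc39a14 was not tested. Of 12 cardiomyocyte markers 1 was higher and 10 lower in DOX_Vehicle than in Sham_Vehicle, and 5 of 5 tested erythroid markers were lower. Of 9 fibroblast markers 1 was higher and 6 lower, of 9 endothelial markers 2 higher and 1 lower, and of 9 macrophage markers 0 higher and 3 lower. Summed erythroid markers varied between groups and within DOX_NMN, and their part in the levels of Mt1 was not tested. The sums were 0.378 to 2.56 CPM in DOX_Vehicle and 340 to 572 CPM in Sham_Vehicle. In DOX_NMN they were 0.377 to 4.65 CPM in replicates 1, 2 and 4 and 321 CPM in replicate 3. Of liver, where metallothioneins are abundant, the markers were near 0: Alb had at most 5 counts in any library and Tat had 0 in all. Of 6 liver markers in the table only Ttr, which binds thyroid hormone, passed the filter, with a log2 fold of 3.24 in DOX_Vehicle against Sham_Vehicle.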

How the data were processed

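Heart RNA was sequenced in 16 libraries, 4 in each of 4 groups taken from the sample labels. The kit, per the labels' protocols, was NEBNext Ultra RNA, which does not keep strand. The authors deposited raw counts and FPKM for 30884 genes. The submitters' processing notes name HISAT2 2.1.0, HTSeq 0.6.0 and GRCm38, but the annotation release and counting mode were not given in the sources used here. Deposited FPKM equalled counts divided by the library total and 1 length per gene (largest relative deviation 9.68e-15).

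Counts were fitted in R 4.3.3 with edgeR 4.0.16 (TMM scaling, default expression filter, robust quasi-likelihood fit of 4 group means), and p-values were adjusted over 14716 genes by the Benjamini-Hochberg method (threshold 0.05). CPM are counts scaled to the TMM-adjusted library size. SE is that of the log2 fold, and intervals are 95%. Profiles were compared on log2 CPM with a prior count of 2. Robust estimation was set after the fits with and without it had been seen, because its counts of called genes were nearer to those of an earlier analysis of these data.

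Exon overlaps came from GENCODE M21, whose positions for the 27 zinc genes were the same as in the files, and promoter windows from RefSeq (GRCm38.p6). The lists were the zinc exporters, importers and metallothioneins, genes that depend on MTF1, copper handling, iron and manganese transport, glucocorticoid-responsive genes, the interleukin-6 family and STAT3, and markers of 7 cell types; 4 listed genes were missing from the table. The named genes were the 6 genes, the called members of their families, up to 4 called genes per list with the smallest p and the 3 nearest profiles. The 6 genes and all lists were chosen with earlier results of these data known. Alternatives tried were scaling by RLE or upper quartiles, a filter of 1 CPM in 4 libraries or none, DESeq2 1.42.0, limma-voom and limma-trend on log2(FPKM + 1) in limma 3.58.1, a fit of just the pair of groups compared, a replicate block, the split of the libraries as a term or as subsets, each library left out, and, after seeing the data, edgeR without robust estimation, the list counts within each part, and each called zinc gene under every setting. The steps were also run on simulated counts, with changes placed in DOX_Vehicle only, the same dispersion for all genes and no split of the libraries. That run therefore does not cover the effect of the split.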

Additional observations from a re-analysis of the deposited data

Results flagged for a closer look

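The effect of doxorubicin with NMN minus that without NMN differed from 0 by edgeR's interaction test for 3 zinc genes: Mt1 (log2 -3.48, SE 0.39, adjusted p = 1.14e-04), Slc39a14 (-1.17, SE 0.35, adjusted p = 0.0322) and Slc30a9 (0.44, SE 0.15, adjusted p = 0.0431). The Slc39a14 and Slc30a9 calls were lost in 10 and 13 of 16 fits that left out a library.

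In 3 of 76 groups of 4 libraries a single library lay far from the other 3, beyond Dixon's 95% critical value, and chance flags about 1 in 20 such groups. Replicate 4 of Sham_NMN was high for Slc39a10 (16.8 CPM, the others 13.8 to 13.9) and for Slc39a9, the importer ZIP9 (30.3 CPM, the others 25.4 to 25.9). Replicate 4 of Sham_Vehicle was high for Slc30a6, a transporter of the secretory pathway (11.7 CPM, the others 7.53 to 8.03). Both libraries belong to the second part, and the part this played was not tested.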

How the results depend on the processing

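Mt1 kept its direction and its call in DOX_Vehicle against Sham_Vehicle (log2 fold 2.42 to 3.74), in DOX_NMN against DOX_Vehicle (-3.03 to -2.65) and in the interaction (-3.49 to -3.09) under every alternative run. Leaving out a library gave 2.92 to 3.27, -3.04 to -2.78 and -3.69 to -3.25. With only the first part of the libraries, Slc39a14 lost its call in these 3 comparisons (0.26, -0.19 and -0.36), and without a filter on low counts its interaction lost the call (-1.15, edgeR, adjusted p = 0.108). Leaving out a library gave 0.78 to 1.25, -1.24 to -0.77 and -1.40 to -0.92 for Slc39a14, with 10 of 16 interaction calls lost, each named in the report. In DOX_NMN against Sham_NMN, Mt1 was at 0.56 in the second part, which sets 1 library against 1, with no replicate check and the spread taken from other groups. The cause of these changes was not tested, but the subsets hold fewer libraries.

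Zinc genes called of 19 in DOX_Vehicle against Sham_Vehicle were 7, but 2 in the first part and 11 in the second (6 to 8 leaving out a library). In DOX_NMN against DOX_Vehicle they were 4, but 2 in the first part (4 to 7 leaving out a library, 7 without replicate 2 of DOX_Vehicle). In DOX_NMN against Sham_NMN they were 0, but 1 in the second part (1 library a group). In the interaction they were 3, but 1 without a filter, 1 in the first part and 5 in the second (1 to 5 leaving out a library; 5 without replicate 2 of DOX_Vehicle, and 1 without any of the 10 libraries that end the Slc39a14 call).

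Counts over all genes moved to 4128 (main 7144) with only the first part in DOX_Vehicle against Sham_Vehicle, to 3359 with only the 2 groups compared and 3206 in the first part (main 5305) in DOX_NMN against DOX_Vehicle, to 2 and 91 in the first and second part in Sham_NMN against Sham_Vehicle (main 0), to 21 with DESeq2, 1874 in the second part and 20 without replicate 3 of DOX_NMN in DOX_NMN against Sham_NMN (main 0), and to 1382 and 4827 in the parts for the interaction (main 2654; 1678 to 4111 leaving out a library). Without edgeR's robust estimation, an alternative added after seeing the data, 7170, 5336, 0, 0 and 2714 genes were called and no call of the 5 genes or count of zinc genes changed.

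Of 24 same-numbered pairs of libraries, correlations of deviations ran from -0.12 to 0.40, and 5 were over 0.1. Of 16 libraries 5 correlated best with their own number, and no chance level was computed. The numbers partly followed the split: replicates 1 and 2 of every group were in the first part and replicate 4 of every group in the second. Whether same-numbered libraries shared a batch or day was not tested. With the replicate number as a block, no call of the 5 genes changed and Slc30a9 lost its interaction call (0.44, adjusted p = 0.0621); Mt1 was at 3.08, -2.91 and -3.46 and Slc39a14 at 0.98, -0.97 and -1.12.

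Low counts limit Slc30a1, at 10 to 25 per library, and Mt2, at 0 to 2, and the cause of the low Mt2 count was not tested.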
